A study of Rattus norvegicus with 8 samples.

Results

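The genes described are 10 genes of prostaglandin synthesis and signalling and of phospholipases, measured in the rat hippocampus after intracranial self-stimulation (ICSS). They were taken by gene symbol from the platform annotation: Pla1a, Pla2g4a, Pla2g2a, Pla2g5, Ptgs1, Ptgs2, Ptges, Ptgds, Ptger3 and Ptger4. All 10 were measured, by 32 of 45220 features, among 14871 named genes. The set was drawn up with the ICSS and Sham values of these arrays in view, led by Ptgs2 and Pla1a. Differences of the 10 genes between ICSS and Sham are therefore descriptions and carry no test.

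ICSS rats had an electrode in the right lateral hypothalamus, recovered for 7 days and were trained in sessions of 20 min on 2 days. They then self-administered 2500 trains of current of 0.3 s each, at 50 Hz and 10 to 400 µA. Sham rats carried the same electrode and spent 40 min in the box without current. The same recovery of 7 days and training sessions of 20 min on 2 days are listed for them. All were male Wistar rats of 13 weeks. Each group had 4 pools (ICSS replicates 1 to 4, Sham replicates 1 to 4), and each pool held hippocampi of the electrode's side from 3 rats, so that differences between single animals cannot be seen. How long after the session the tissue was taken is not stated in these sources. Each array held 1 pool in Cy5 beside a common reference in Cy3 that was prepared from brains of both groups. Each value is the log ratio of pool to reference, taken as log2 because the base is not stated. The labels give hippocampus, thalamus and cortex of the other side for the reference, while the design text gives hippocampus of the electrode's side. Array medians lay between -0.032 and 0.016, arrays correlated at r = 0.586 to 0.873, and Sham replicate 4 stood farthest from the rest. Of 8 hippocampal marker genes measured 7 lay above the reference, and all 7 thalamic markers lay below it. No spot brightness was used, so the values do not say whether a gene is expressed.

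Prostaglandins are lipid signals made on demand. Phospholipases cut fatty acids such as arachidonic acid, or lysophospholipids, out of membrane phospholipids, cyclooxygenases turn arachidonic acid into prostaglandin H2, terminal synthases make the individual prostaglandins, and G protein-coupled receptors read them. In the brain the cyclooxygenase Ptgs2 is known as a gene that neuronal activity induces in excitatory neurons of hippocampus and cortex, whereas Ptgs1 is found largely in microglia.

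The bases just before the annotated start of Ptgs2, Pla2g4a and Pla1a are shown because these are the 3 genes whose values were higher in every ICSS pool than in every Sham pool. They are RefSeq sequences of the rat assembly GRCr8, 250 bases each, read 5′ to 3′ in the direction of the gene, and capitals mark matches to the motifs searched.
Ptgs2, chr13:64713813-64714062, plus strand: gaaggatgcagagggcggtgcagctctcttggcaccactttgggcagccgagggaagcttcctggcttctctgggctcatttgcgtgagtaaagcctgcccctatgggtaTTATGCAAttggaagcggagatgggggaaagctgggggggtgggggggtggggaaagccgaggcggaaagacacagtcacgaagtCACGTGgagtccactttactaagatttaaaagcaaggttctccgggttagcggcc
Pla2g4a, chr13:64572353-64572602, minus strand: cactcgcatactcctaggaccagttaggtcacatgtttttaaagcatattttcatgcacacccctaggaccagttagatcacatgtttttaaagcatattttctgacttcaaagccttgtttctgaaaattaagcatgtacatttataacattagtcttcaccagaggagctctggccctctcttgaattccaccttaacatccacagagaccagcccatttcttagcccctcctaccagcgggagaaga
Pla1a, chr11:75825376-75825625, plus strand: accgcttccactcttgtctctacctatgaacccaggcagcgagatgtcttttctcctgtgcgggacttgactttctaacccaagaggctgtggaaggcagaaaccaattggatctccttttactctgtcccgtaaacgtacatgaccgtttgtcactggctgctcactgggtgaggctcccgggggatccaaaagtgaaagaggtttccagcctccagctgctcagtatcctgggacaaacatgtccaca

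The motifs searched were the cAMP response element TGACGTCA, its half-site TGACG, which lies within it, the E-box CACGTG, the C/EBP motif TTGCNNAA and the AP-1 motif TGANTCA on both strands, and TATAAA on the gene's strand. The Ptgs2 window held an E-box, 55 to 50 bases before the start, and a C/EBP motif on the other strand, 140 to 133 bases before it. Of 27457 rat promoter windows of the same length, 5.79% held this E-box and 9.2% this C/EBP motif. The windows of Pla2g4a and Pla1a held none of the 6 motifs, which says only that these letters are absent there. Pla2g4a and Ptgs2 are neighbours on chromosome 13: they point away from each other, their starts lie 141711 bases apart, and no protein-coding gene is annotated between them.

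Among the 10 genes, Ptgs2, Pla1a and Pla2g4a were higher in all 4 ICSS pools than in all 4 Sham pools, and the other 7 overlapped between the groups. Over all 34738 units tested, that is genes and unnamed probes, all ICSS pools lay above all Sham pools in 4.13% (4.66% of named genes), and the groups did not overlap in either direction in 7.8% (8.98% of named genes). The mean was higher in ICSS pools for 8 of the 10 genes, as it was for 52.6% of named genes. Pla1a was the 1 gene of the 10 past an adjusted p of 0.05 in limma's fit over all units. In that fit 0.0461% of units were called in either direction and 0.0259% as higher. Of 16 alternative analyses, Pla1a was past that value in 9, Ptgs2 in 3 and Pla2g4a in 1. The count for Ptgs2 includes the alternative with features as units. There its feature with the lowest p was counted, and some of its features did not pass. No reading is drawn from these counts, since the genes were chosen on this contrast. The median difference was 0.11 on the log2 scale over the 10 genes, against 0.0069 over all named genes.

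**Figure D1:**
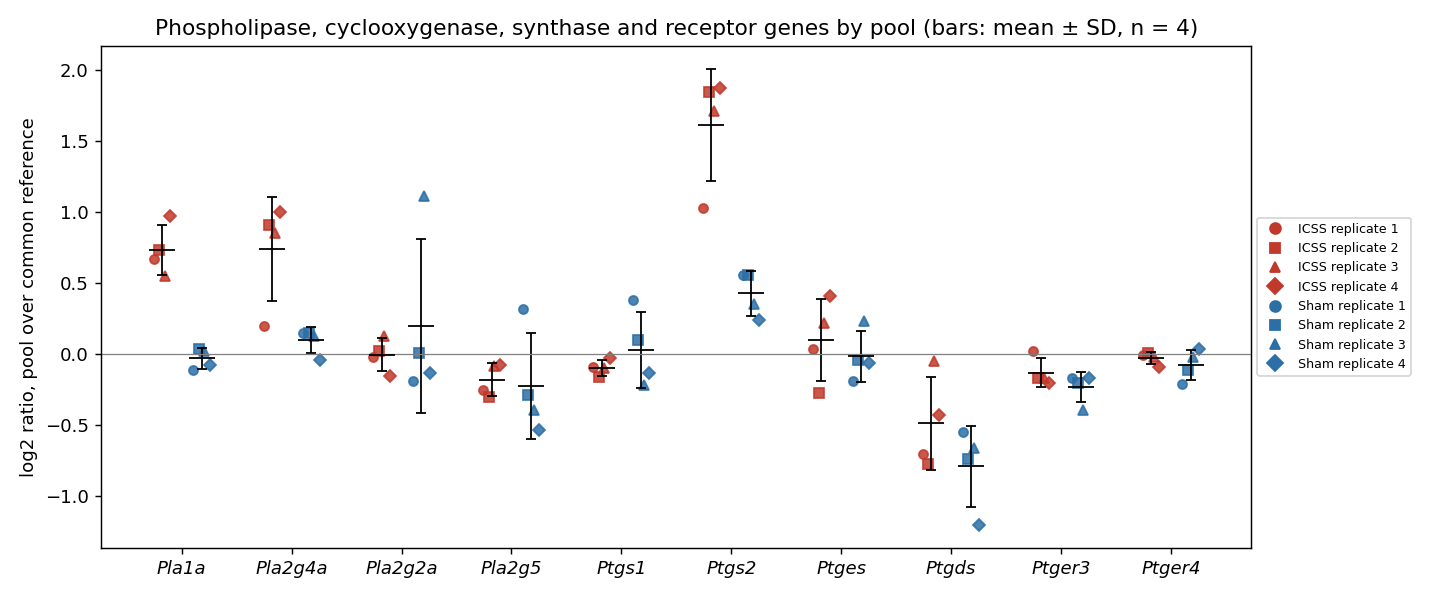
Log2 ratio of pool over common reference (vertical axis) for each of the 10 genes, as the mean over its features. Red symbols are the 4 ICSS pools and blue symbols the 4 Sham pools, with 1 symbol shape per replicate number, and bars give mean ± SD. Ptgs2, Pla1a and Pla2g4a have all red symbols above all blue ones, and Sham replicate 3 stands apart for Pla2g2a at 1.11.

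Of the phospholipases, Pla1a and Pla2g4a were higher in ICSS pools and the secreted enzymes Pla2g2a and Pla2g5 were not separated. Pla1a encodes a secreted enzyme that cuts phosphatidylserine into a fatty acid and lysophosphatidylserine. Its log2 ratios were 0.67, 0.73, 0.55 and 0.97 in ICSS replicates 1 to 4, against -0.11, 0.039, 0.024 and -0.073 in Sham replicates 1 to 4. The Sham pools sat at the level of the reference and the ICSS pools were clearly apart from them, ICSS replicate 1 included. The ICSS mean was 0.73 ± 0.17 and the Sham mean -0.030 ± 0.072 (SD, n = 4 each), a difference of 0.76 (SE 0.087) or 1.69-fold. Pla1a had 1 feature, so no second probe bears on it.

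Pla2g4a encodes cytosolic phospholipase A2, the calcium-dependent enzyme that releases arachidonic acid from membranes. Its log2 ratios were 0.20, 0.91, 0.85 and 1.0 in ICSS replicates 1 to 4, against 0.15, 0.15, 0.13 and -0.038 in Sham replicates 1 to 4. ICSS replicate 1 was just above the upper Sham pools, while the other ICSS pools stood well above them. The difference was 0.64 (SE 0.15), or 1.56-fold, and it was 0.82 without ICSS replicate 1. This gene also had 1 feature.

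Pla2g2a, a secreted phospholipase A2 gene of inflammation, lay between -0.15 and 0.13 in ICSS pools. In Sham pools it was at -0.19, 0.0077, 1.11 and -0.13 in replicates 1 to 4. Sham replicate 3 alone was high, on the 1 feature of this gene, and the difference of -0.21 (SE 0.25) became 0.097 without that pool. Pla2g5, another secreted phospholipase A2 gene, lies 13.8 kb from Pla2g2a, start to start on chromosome 5. It ranged from -0.30 to -0.078 in ICSS pools and from -0.53 to 0.32 in Sham pools, with Sham replicate 1 the highest and the groups overlapping. The 2 features of Pla2g5 were unlike in Sham replicate 1, at 0.59 and 0.041. That pool also had the highest mean over microglial markers, at 0.32, and over choroid plexus markers, at 0.91, whose part in the Pla2g5 value was not tested.

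Of the cyclooxygenase genes, Ptgs2 was higher in every ICSS pool and Ptgs1 overlapped between the groups. Ptgs2, the inducible enzyme, had log2 ratios of 1.03, 1.84, 1.71 and 1.87 in ICSS replicates 1 to 4, against 0.56, 0.56, 0.35 and 0.24 in Sham replicates 1 to 4. Every ICSS pool was above every Sham pool, and ICSS replicate 1 lay between the Sham pools and the other ICSS pools. The ICSS mean was 1.61 ± 0.40 and the Sham mean 0.43 ± 0.16 (SD, n = 4 each), a difference of 1.18 (SE 0.17) or 2.27-fold. Counting Ptgs2 itself, 9 of 14871 named genes had a difference at least as large. Since the gene was chosen with these values known, this rank is a description and no support for it. Ptgs1, the constitutive enzyme, was at -0.093, -0.16, -0.10 and -0.024 in ICSS replicates 1 to 4, against 0.38, 0.097, -0.22 and -0.13 in Sham replicates 1 to 4. The ICSS values fell inside the Sham range, and the Sham pools varied more, with an SD of 0.055 over ICSS pools against 0.27 over Sham pools. The mean over 10 microglial marker genes was 0.32 in Sham replicate 1, where Ptgs1 was highest, and between -0.51 and 0.11 in the other pools, with 4 of 10 markers higher in ICSS. The mean over 8 choroid plexus markers was 0.91 in Sham replicate 1 and between -1.44 and 0.11 elsewhere, with 6 of 8 higher in ICSS. The part of either cell type in the Ptgs1 values was not tested, and in bulk tissue more cells of a type and more RNA per cell cannot be told apart.

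Ptgs2 was read by 11 features, and 10 of them gave nearly the same value on each array. Those 10 had differences of 1.20 to 1.35, and their SD within an array was 0.0353 to 0.0855, below the SD between pools of either group. The remaining feature was at 0.29, 0.25, 0.18 and 0.39 in ICSS replicates 1 to 4, against 0.022, -0.13, 0.14 and 0.020 in Sham replicates 1 to 4, a difference of 0.26 (SE 0.074). It had the same direction with no overlap, but it did not show ICSS replicate 1 below the other ICSS pools. Without it the mean difference of Ptgs2 was 1.27, or 2.42-fold. All 11 features carry the same RefSeq transcript in the annotation, and no probe sequence was used here. Of the 10 Ptgs1 features, 1 stood apart on a single array, at 0.56 in Sham replicate 4, where the other 9 lay between -0.34 and -0.094.

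**Figure D2:**
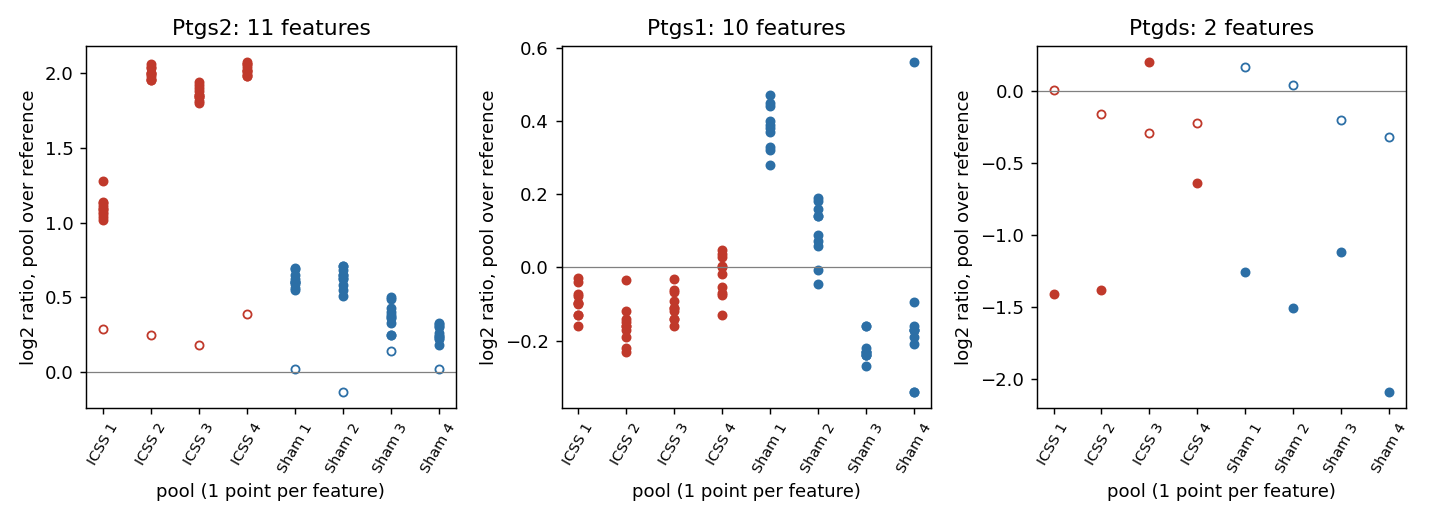
Log2 ratio of pool over reference (vertical axis) for every feature of Ptgs2, Ptgs1 and Ptgds in each pool (horizontal axis; ICSS red, Sham blue). Open symbols mark the Ptgs2 feature with low ratios and the Ptgds feature designed from an expressed sequence tag. The other 10 Ptgs2 features lie between 1.02 and 2.07 in ICSS pools and between 0.18 and 0.71 in Sham pools.

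The terminal synthases were not separated between the groups. Ptges, the inducible prostaglandin E synthase, lay between -0.27 and 0.41 in ICSS pools and between -0.19 and 0.23 in Sham pools, a difference of 0.12 (SE 0.14) that was 0.012 without ICSS replicate 4 and 0.24 without ICSS replicate 2. Ptgds, the prostaglandin D synthase that is abundant in leptomeninges, choroid plexus and oligodendrocytes, was at -0.70, -0.77, -0.048 and -0.43 in ICSS replicates 1 to 4, against -0.55, -0.74, -0.66 and -1.2 in Sham replicates 1 to 4. The groups overlapped, and the difference of 0.30 (SE 0.18) was 0.15 without ICSS replicate 3. The 2 features of Ptgds went apart. The one annotated with the RefSeq transcript was at -1.41, -1.38, 0.20 and -0.64 in ICSS replicates 1 to 4, against -1.26, -1.51, -1.12 and -2.09 in Sham replicates 1 to 4, a difference of 0.69 (SE 0.34). The one annotated with an expressed sequence tag lay between -0.29 and 0.0056 in ICSS pools and between -0.32 and 0.17 in Sham pools, a difference of -0.089 (SE 0.11).

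Markers of tissues known for Ptgds also varied between pools. In ICSS replicate 3, where the RefSeq feature was highest, the mean over 10 marker genes of leptomeninges, fibroblasts and pericytes was -0.040, the highest of the 8 pools. The mean over 7 oligodendrocyte markers was also highest there, at 0.41. In Sham replicate 4, where that feature was lowest, the same lists were at -0.63 and -0.77, but the leptomeningeal list was also at -0.63 in Sham replicate 3, where the feature was at -1.12. The choroid plexus list went otherwise: it was highest in Sham replicate 1, at 0.91, where the feature was at -1.26, and it was at -0.32 in ICSS replicate 3 and at -1.44 in Sham replicate 4. The leptomeningeal list ranged from -0.67 to -0.040 in ICSS pools and from -0.63 to -0.37 in Sham pools, with 9 of 10 markers higher in ICSS. The oligodendrocyte list ranged from -0.23 to 0.41 in ICSS pools and from -0.77 to 0.13 in Sham pools, with 6 of 7 higher. The part of these tissues in the Ptgds values was not tested.

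Both receptors of prostaglandin E2 in the set differed little. Ptger3, which couples to inhibitory G proteins, lay between -0.20 and 0.023 in ICSS pools and between -0.39 and -0.17 in Sham pools, a difference of 0.10 (SE 0.074). ICSS replicate 1 was the highest and Sham replicate 3 the lowest of the 8. Ptger4, which raises cAMP, lay between -0.087 and 0.010 in ICSS pools and between -0.21 and 0.035 in Sham pools, a difference of 0.051 (SE 0.065), with the ICSS values inside the Sham range.

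The level of the pools against the reference is a separate quantity, the mean of both group means. It contains the high ICSS values of Ptgs2, Pla1a and Pla2g4a, so for these 3 genes it is given with no test. Ptgs2 had a mean log2 ratio of 1.02 and was above 0 in all 8 pools, the Sham pools included. Pla2g4a had 0.42, with 3 of its 4 Sham pools above 0, and Pla1a 0.35, with its Sham pools on both sides of 0. For the other 7 genes limma's test against 0, adjusted over all units, placed 2 below the reference and none above it. Of all units, 24.8% were called below and 17.5% above, 42.3% in all, so 2 of 7 is near the background. Ptgds was below the reference, at -0.64 (SE 0.088, limma adjusted p = 0.000212), and negative in all 8 pools. Its feature annotated with the RefSeq transcript gave -1.15, and the other feature -0.12, which did not pass with features tested singly (limma adjusted p = 0.108). Ptger3 was at -0.18 (SE 0.037, limma adjusted p = 0.00251), again carried by 1 of its 2 features, at -0.34 against -0.022. Ptgs1, Ptges, Pla2g2a, Pla2g5 and Ptger4 had mean ratios between -0.20 and 0.099 and did not pass (limma adjusted p from 0.0694 to 0.708). Every array had the pool in Cy5, so a dye effect of a probe is not balanced in these ratios, although it cancels between ICSS and Sham.

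Across the 8 pools, Pla2g4a followed Ptgs2 closely. Pearson's r between them was 0.973 over the 8 values and 0.976 over deviations from the group means, where Pla2g4a ranked 2 among 14870 other named genes. In ICSS replicate 1 both genes were the lowest of the ICSS pools. Without that pool the r of deviations was 0.86 over 7 arrays. Pla1a correlated with Ptgs2 at 0.915 over the 8 values and at 0.337 over deviations. All values share the reference, and the arrays fall into the 2 groups, so these coefficients describe the pools and are no test.

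**Figure D3:**
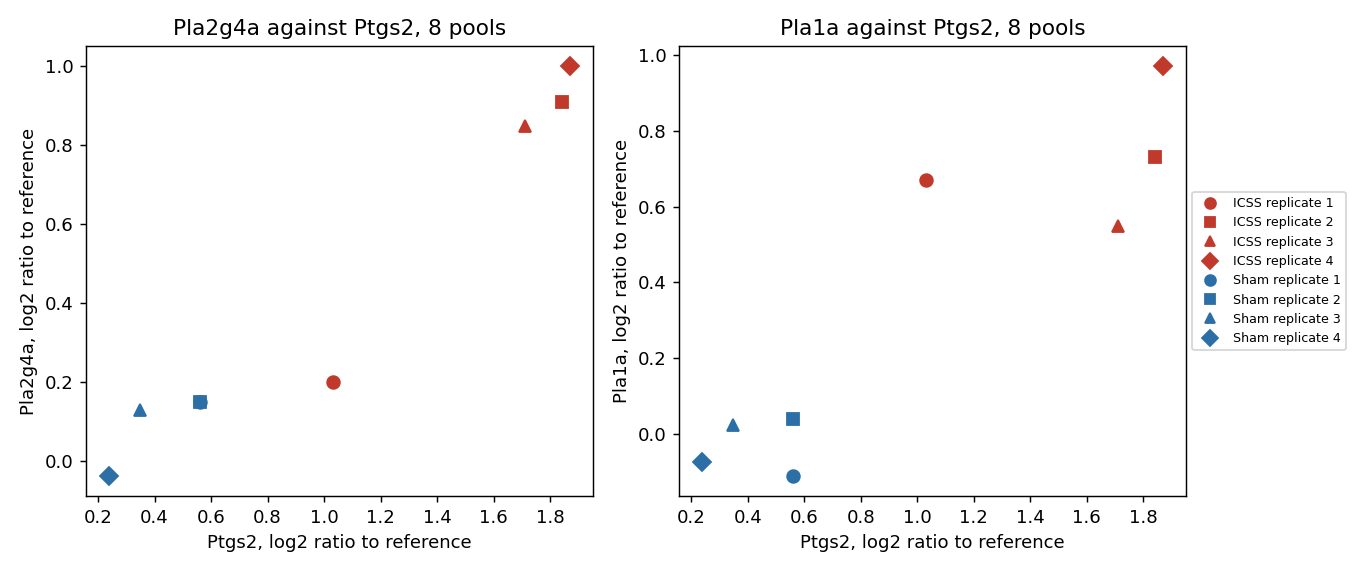
Log2 ratio to the reference of Pla2g4a (left) and Pla1a (right) against that of Ptgs2 in the 8 pools (ICSS red, Sham blue, 1 symbol shape per replicate number; Sham replicates 1 and 2 lie over each other on the left). ICSS replicate 1 is at 0.20 for Pla2g4a and at 0.67 for Pla1a, with Ptgs2 at 1.03.

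The named genes most like Ptgs2 over the 8 arrays by Pearson's r were Ube2d3, which encodes a ubiquitin-conjugating enzyme (r = 0.991), Cbfb, a transcription factor subunit gene (0.990), Bag3, a co-chaperone gene (0.986), Sigirr, a receptor gene that restrains interleukin 1 signalling (0.984) and Spn, which encodes the surface protein leukosialin (0.982). Their differences between ICSS and Sham ran from 0.16 for Ube2d3 to 0.91 (SE 0.19) for Bag3, so a like pattern came with unlike size. By deviations from group means the closest were Bag3 (0.985), Pla2g4a (0.976) and RT1-S3, a rat class I histocompatibility gene (0.975). Bag3 was at -0.12, 0.73, 0.55 and 0.88 in ICSS replicates 1 to 4, against -0.23, -0.33, -0.46 and -0.60 in Sham replicates 1 to 4. Bag3 thus had ICSS replicate 1 next to the Sham pools, as Pla2g4a did.

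For Pla1a the closest were Crem, a cAMP-responsive transcription factor gene (r = 0.979), Coq10b, a coenzyme Q binding protein gene, Ahcyl1, which encodes a regulator of inositol trisphosphate receptors, Hsp90aa1, a chaperone gene, and Copb2, a coat protein gene of Golgi vesicles (all 0.976). Crem was at 0.28, 0.50, 0.42 and 0.65 in ICSS replicates 1 to 4, against -0.31, -0.28, -0.34 and -0.33 in Sham replicates 1 to 4. As for Pla1a, its ICSS replicate 1 stood apart from the Sham pools. By deviations the closest were Scg3, a granin gene (0.972), Or5p76, an olfactory receptor gene (0.967), and Rapgef2, a guanine nucleotide exchange factor gene (0.962). These 3 overlapped between the groups and differed by -0.091, -0.012 and -0.053.

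Related genes outside the set were examined in 6 lists, with 80 of 92 genes measured. None passed in limma after adjustment over all units, with 40 higher and 40 lower in ICSS pools. At an unadjusted p under 0.05 there were 15 (7 higher, 8 lower), or 15 of 80 against 12.6% of all units. All ICSS pools lay above all Sham pools in 3 genes and below them in 6, where 4.13% and 3.66% of all units did.

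Among 21 other phospholipase and related genes, 10 were higher and 11 lower, between -0.24 and 0.29. Ddhd1, an intracellular phospholipase A1 gene, was at 0.47, 0.51, 0.47 and 0.44 in ICSS replicates 1 to 4, against 0.23, 0.28, 0.17 and 0.035 in Sham replicates 1 to 4, a difference of 0.29 (SE 0.063, limma adjusted p = 0.145). The groups did not overlap and ICSS replicate 1 was among the higher pools. Plaa, which encodes a phospholipase A2 activating protein, differed by 0.16 (limma adjusted p = 0.367).

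Of 13 genes of prostanoid synthesis, transport and breakdown, 7 were higher and 6 lower. Ptgr3, a prostaglandin reductase gene, ranged from -0.62 to -0.27 in ICSS pools and from -0.26 to 0.015 in Sham pools, or -0.34 apart (SE 0.088, limma adjusted p = 0.186). The gap between the groups was narrow, at ICSS replicate 2 and Sham replicate 1. Ptges3, which encodes the cytosolic prostaglandin E synthase, also a co-chaperone of Hsp90, ranged from -0.035 to 0.31 in ICSS pools and from -0.22 to 0.11 in Sham pools, 0.23 apart on average (SE 0.094, limma adjusted p = 0.36). The list of prostanoid receptors held 7 further genes, including Ptgfrn, a receptor regulator gene. It had the smallest range of the 6 lists, from -0.069 to 0.10. Ptgir, the prostacyclin receptor gene, was at the upper end (limma adjusted p = 0.53). Ptger2, a further prostaglandin E2 receptor gene, was at the lower (limma adjusted p = 0.752). The difference of Ptger2 was 0.011 without Sham replicate 4.

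The 14 lipoxygenase and leukotriene genes had 7 higher and 7 lower. Alox12, the gene of the platelet-type lipoxygenase, differed by 0.14 (limma adjusted p = 0.386) and Ltb4r, a leukotriene B4 receptor gene, by -0.19 (limma adjusted p = 0.401). Neither overlapped between the groups, but the gaps were narrow. The lowest ICSS pool of Alox12 was at -0.043 and its highest Sham pool at -0.046. For Ltb4r the highest ICSS pool was at -0.029 and the lowest Sham pool at -0.0051. The difference of Ltb4r was -0.10 without ICSS replicate 1. The 10 endocannabinoid genes had 5 higher and 5 lower. Faah, whose enzyme breaks down anandamide into arachidonic acid, was at 0.11, 0.016, -0.070 and 0.12 in ICSS replicates 1 to 4, against 0.28, 0.27, 0.44 and 0.45 in Sham replicates 1 to 4, or -0.32 apart (SE 0.070, limma adjusted p = 0.152). All ICSS pools were below all Sham pools. Abhd4, a lipase gene of N-acyl phospholipid breakdown, differed by -0.17 (limma adjusted p = 0.309). The upper end of this list, 0.53, was Dagla, a diacylglycerol lipase gene named here after its values were seen. It was at -1.89 in Sham replicate 4 and between -0.23 and 0.16 in the other 7 pools, and its difference was 0.070 without that pool.

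The 15 lysophospholipid genes, which include the receptors of the product of Pla1a, had 7 higher and 8 lower. At an unadjusted limma p under 0.05 there were 6 (1 higher, 5 lower), where 12.6% of all units were. Lpar4, which encodes a receptor of lysophosphatidic acid, was at 0.25, 0.27, 0.077 and 0.11 in ICSS replicates 1 to 4, against -0.077, 0.056, -0.098 and -0.040 in Sham replicates 1 to 4, 0.22 apart on average (SE 0.066, limma adjusted p = 0.236). Mboat7, whose enzyme puts arachidonic acid back into phosphatidylinositol, differed by -0.17 between ICSS and Sham pools, again without overlap but not past the threshold (SE 0.053, limma adjusted p = 0.248).

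**Figure D4:**
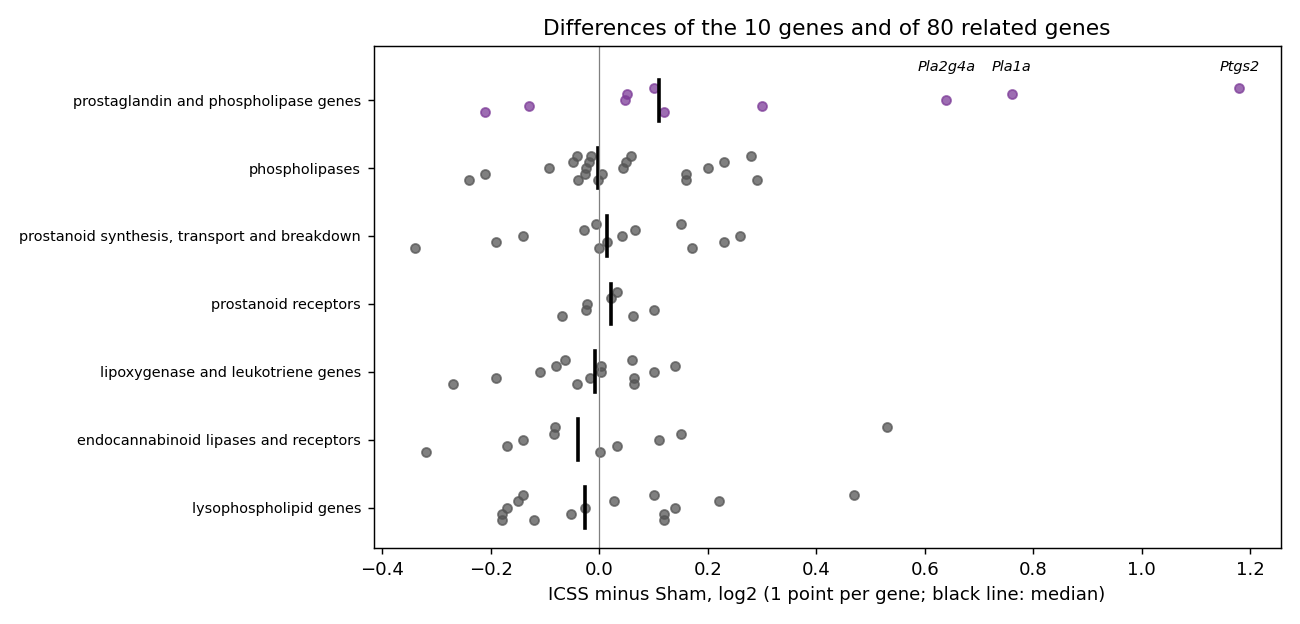
Difference between ICSS and Sham pools on the log2 scale (horizontal axis), 1 point per gene, for the 10 genes (top row) and for the 6 lists of related genes, with the median of each row as a black line. Ptgs2 at 1.18, Pla1a at 0.76 and Pla2g4a at 0.64 lie to the right of every point of the lists. The 10 genes were chosen with this contrast known, so their place beside the lists is a description and no test. The highest value of the lists, 0.53 for Dagla, is 0.070 without Sham replicate 4.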

How the data were processed

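The deposited values are log2 ratios of pool (Cy5) to reference (Cy3), 1 for each of 45220 features on every Agilent array, per the labels. The submitters' processing notes name limma. How background and arrays were corrected and filtered is not stated in these sources, nor is the log base, which was taken as log2. Features were named through the platform annotation with symbols updated by Entrez identifier (25353 features with 1 symbol, 48 with several, 19819 with none listed). The features of a gene were averaged, which gave 14871 genes and 19867 unnamed probes. In R 4.3.3, limma 3.58.1 (moderated two-sided test, group as the 1 factor, Benjamini-Hochberg over all 34738 units, threshold 0.05) was fitted to all 8 arrays and tested on simulated data. The 10 genes, lists, markers and motifs were chosen with earlier results of these data, or the sequences, known. Named genes were all 10 genes, for each list any called gene and otherwise the 2 with the lowest p, and for Ptgs2 and Pla1a the 5 closest by r and the 3 closest by r of deviations. Bag3 and Crem were given per pool after their values were seen. The number of arrays limits the precision.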

Additional observations from a re-analysis of the deposited data

Results flagged for a closer look

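In groups of 4 pools, 5 of 44 groups examined held a pool whose gap to the nearest other exceeded Dixon's critical share of the group's range, where chance gives about 5% of groups. Pla2g2a was at 1.11 in Sham replicate 3, against -0.19 to 0.0077 in the other Sham pools. Pla2g4a was at -0.038 in Sham replicate 4, against 0.13 to 0.15 in the others. For Ptger3, ICSS replicate 1 had 0.023 and the other ICSS pools -0.20 to -0.17. Its Sham replicate 3 had -0.39 and the other Sham pools -0.20 to -0.17. For Ltb4r, ICSS replicate 1 had -0.40 and the other ICSS pools -0.073 to -0.029.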

How the results depend on the processing

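Over 16 alternatives the differences of the 10 genes moved by less than the spread between pools, and those of Ptgs2, Pla1a and Pla2g4a stayed positive, at 1.10 to 1.38, 0.68 to 0.82 and 0.56 to 0.82 when single pools were left out. Signs changed for Pla2g2a without Sham replicate 3 and for Pla2g5 in 2 alternatives. The call of Pla1a, which is no test of that gene, was absent without ICSS replicate 2 or 3, without any 1 Sham pool and with the replicate block. Units called numbered 16, against 0 with the replicate block, 34 with array quality weights, 53 with features as units and 0 to 153 without single pools, where 153 was without ICSS replicate 1 and 0 without ICSS replicate 2 or 3. With named genes only, 6842 units were called against the reference, against 14696, fewer units being tested. Pla2g5 passed against the reference without Sham replicate 1 (-0.29, limma adjusted p = 0.000538) and, with features as units, in 1 of its 2 features (limma adjusted p = 0.039, against 0.168 for the other). No pathway gene was called in any alternative. Of the 5 genes most like Ptgs2, 3 remained by Spearman's rho and 2 by deviations, and of those most like Pla1a 1 and 0. Leaving out the low Ptgs2 feature or, for its correlation with Pla2g4a, ICSS replicate 1 was chosen after seeing the data, as was leaving out pools for Dagla. The causes were not tested. Same-numbered ICSS and Sham pools did not deviate together (r from -0.065 to 0.062, against -0.274 to 0.211 for other pairs). The sample labels link these pools only by number. Whether they shared a batch, as the replicate block assumes, cannot be told from these values. Without intensities, how far signal over background limits these values is unknown.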
